A study of Mus musculus with 10 samples.

Results

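Conventional dendritic cells of the mouse spleen fall into 2 subsets, and the 6 libraries described here hold 1 subset each: 3 labelled CD11b Dendritic Cells and 3 labelled CD8 Dendritic Cells, all from wild-type mice (WT, Atg16l1 +/+). They are 6 of the 10 libraries of the series, chosen by genotype from the sample labels alone; the other 4 come from Atg16l1 -/- mice (KO) and enter only where the subset difference is compared between genotypes. The mice were C57BL/6, 16 weeks old, in a study of atherogenesis, and each spleen was processed separately. CD11c-expressing cells were enriched with beads and sorted as MHCII-high CD11c-high cells that were either CD11b+ CD8- or CD11b- CD8+, and total RNA was made into stranded libraries and sequenced. The replicates are samples of separate spleens, 3 in each group. The p-values below weigh differences against the spread between these samples, moderated by the spread of other genes. In the WT fit the samples gave 4 degrees of freedom per gene and the other genes a median of 13.1.

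Conventional dendritic cells take up antigen, digest it and show the peptides to T cells on MHC molecules. The cDC1 subset depends on the transcription factors IRF8, BATF3 and ID2, carries XCR1 and CLEC9A, takes up dying cells and is known for presenting their antigens on MHC class I to CD8 T cells. The cDC2 subset depends on IRF4, RELB, Notch2 signalling and ZEB2, carries CD11b and SIRPα, and is known for presenting antigen on MHC class II to CD4 T cells.

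The deposited labels run opposite to the subset markers. Levels are in CPM, the counts of a gene scaled to the gene counts of its library. Cd8a, the CD8α chain that marks splenic cDC1 (chromosome 6, 71373427 to 71379173), was at 450.4, 573 and 457 CPM in the libraries labelled CD11b and 1.94, 0.899 and 5.77 CPM in those labelled CD8. Xcr1, the receptor for the chemokine XCL1 (chromosome 9, 123852315 to 123862029), was at 323, 438 and 327 CPM in the libraries labelled CD11b and 7.96, 9.62 and 11.1 CPM in those labelled CD8. Clec9a, a receptor for exposed actin filaments of dead cells (chromosome 6, 129408862 to 129424763), was at 546, 662 and 536 CPM in the libraries labelled CD11b and 33.4, 25.4 and 40.1 CPM in those labelled CD8. For all 3 cDC1 markers the lowest library labelled CD11b lay far above the highest library labelled CD8. Itgam, which encodes CD11b itself (chromosome 7, 128062640 to 128118491), was at 2.75, 2.24 and 1.57 CPM in the libraries labelled CD11b and 77.4, 90.4 and 74.8 CPM in those labelled CD8. Sirpa, the receptor for CD47 (chromosome 2, 129592835 to 129632228), was at 24, 23.9 and 29 CPM in the libraries labelled CD11b and 609.8, 624 and 554 CPM in those labelled CD8. These cDC2 markers ran the other way, again with no overlap. So the libraries labelled CD11b were cDC1-like and those labelled CD8 were cDC2-like; labels are kept as deposited, and every direction below is stated by label and should be read with this reversal. All coordinates are on GRCm38.

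**Figure D1:**
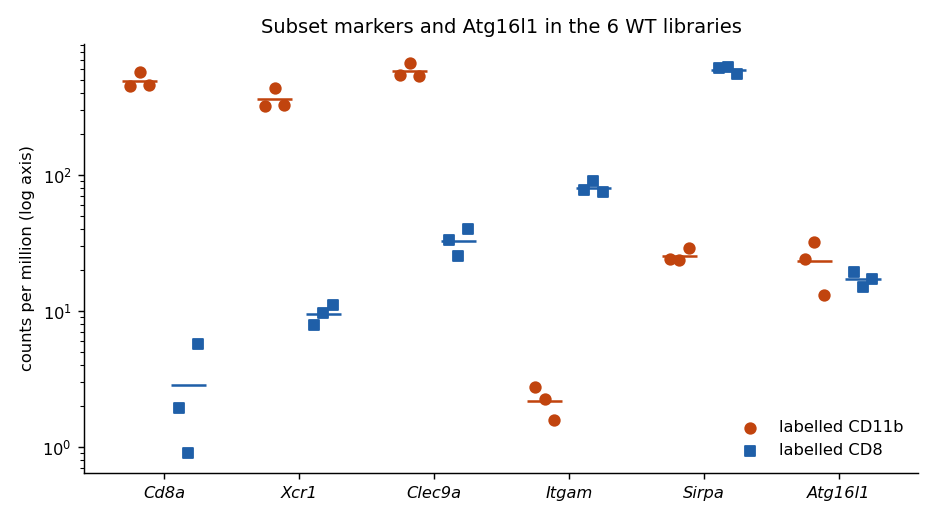
CPM (log axis) of 5 subset markers and Atg16l1 in each WT library; circles are libraries labelled CD11b, squares those labelled CD8, and short lines are the means of 3. Cd8a, Xcr1 and Clec9a sit high in the libraries labelled CD11b, Itgam and Sirpa in those labelled CD8, and Atg16l1 overlaps.

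The wider marker lists ran the same way, but they were chosen with earlier results of these data known and so add no separate support. Of 34 cDC1 markers tested, 33 were higher at label CD11b, with a median log2 fold change of 3.44, and Klri2, a lectin-like receptor gene, was higher at label CD8 (1.23 ± 0.103 against 38 ± 3.81 CPM). Of 33 cDC2 markers tested, 32 were higher at label CD8, with a median of -2.99, and Clec12a, an inhibitory lectin, was higher at label CD11b (102 ± 6.07 against 22.7 ± 4.92 CPM). Here and below the first mean is of the libraries labelled CD11b and the second of those labelled CD8, each with its SD over 3 libraries, and log2 fold changes are label CD11b minus label CD8. Of 12 genes of dendritic cells in general, 7 were not called, 2 were higher at label CD11b (Cd74 and Flt3) and 3 at label CD8 (Bcl11a, Ikzf1 and Itgax). Log2 fold changes of the called genes ran from -1.01 to 0.76. Among those not called, Zbtb46 was at 154 ± 4.08 against 160.0 ± 9.97 CPM, H2-Ab1 at 8594 ± 421 against 7707 ± 391 CPM and Spi1, which encodes PU.1, at 419 ± 4.59 against 393 ± 1.07 CPM.

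The WT libraries held 9467704 to 13768884 gene counts and 16652 to 20918 genes with at least 1 count, the most in the library labelled CD11b, replicate 1. In that library Itsn1 stood at 14015 CPM, against 35112 to 42266 CPM in the other 5. The share of reads outside annotated exons was 33.1% to 36.09% in the libraries labelled CD11b and 39.08% to 41.44% in those labelled CD8, and its part in the results below was not tested. Atg16l1, the gene deleted in the KO mice, was at 24.2, 32.4 and 13.2 CPM in the libraries labelled CD11b and 19.5, 15.1 and 17.2 CPM in those labelled CD8, overlapping between labels and not called. Without the library labelled CD11b, replicate 3, it was called, with a log2 fold change of 0.71 (edgeR quasi-likelihood, adjusted p = 0.0282).

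Of 12358 genes tested with edgeR's quasi-likelihood test, 4182 (33.8%) were called at a Benjamini-Hochberg adjusted p under 0.05. The calls comprised 1987 genes (16.1%) higher at label CD11b and 2195 genes (17.8%) higher at label CD8. Counts of called list members, above and below, are to be read beside these shares. Calls over 2-fold numbered 875 (7.08%) and 1172 (9.48%). The median log2 fold change of all genes was 0.01. Values of the 2 labels did not overlap for 5669 genes (45.9%). The labels were split by the leading principal component (65.2% of variance), and log2 CPM correlated across genes at 0.952 to 0.962 within a label and 0.856 to 0.88 between labels, genes not being independent replicates.

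**Figure D2:**
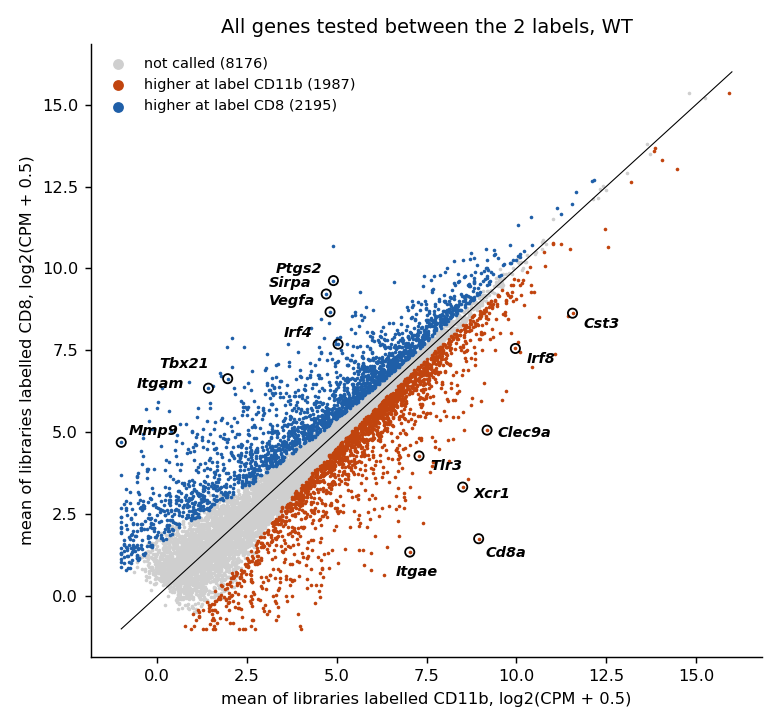
Mean level of each tested gene in the 3 libraries labelled CD11b (horizontal) against the 3 labelled CD8 (vertical), both as log2(CPM + 0.5); the line marks equality and named genes are circled. The 1987 genes called higher at label CD11b lie below the line and the 2195 called higher at label CD8 above it.

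In the libraries labelled CD11b (cDC1-like) the largest fitted fold change was that of Clec4b2, a lectin-like receptor, at 7.32, 3.44 and 7.57 CPM and 0 counts in all libraries labelled CD8. Taking 3 counts over the whole group as the floor, it was at least 62.4-fold higher. Pcsk5, a proprotein convertase, had 575 counts against 1, a ratio of 480.4 with a 95% counting interval of 85.9 to 19007. Itgae, the αE integrin chain also called CD103, was at 92.5, 169.9 and 128 CPM in the libraries labelled CD11b and 0.753, 0.809 and 4.56 CPM in those labelled CD8. Cd207, the lectin langerin, was at 18.7, 27.9 and 15.5 CPM in the libraries labelled CD11b and 0.538, 0.54 and 0 CPM in those labelled CD8. Gpr33, an orphan chemoattractant receptor, was at 14.6 ± 3.17 against 0.192 ± 0.181 CPM, Dkk3, a secreted Wnt modulator, at 61.6 ± 8.24 against 1.23 ± 0.667 CPM, and Mab21l3 at 79.4 ± 17.9 against 1.08 ± 1.09 CPM. Shroom4, an actin-binding protein, was at 9.78 ± 2.41 against 0.159 ± 0.104 CPM and Efcc1 at 22.6 ± 3.69 against 0.477 ± 0.135 CPM. Akr1b8, an aldo-keto reductase, and Hoga1, a mitochondrial aldolase, had 3 counts each in the libraries labelled CD8, with count ratios of 60.2 (interval 20.3 to 294) and 59.6 (20.1 to 291). These intervals and the floor account for counting alone, not for differences between samples.

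In the libraries labelled CD8 (cDC2-like) 3 of the largest folds were genes with 0 counts at label CD11b. Mmp9, a gelatinase, was at 31.9, 25.3 and 19.1 CPM, at least 312-fold higher. Trem1, an activating myeloid receptor, was at 9.46, 16.5 and 11.5 CPM, at least 158-fold higher. Ffar1, a receptor for long-chain fatty acids, was at 8.49, 3.51 and 5.95 CPM, at least 72.6-fold higher. Cd101, an inhibitory immunoglobulin-family receptor, was at 0.458, 0 and 0.462 CPM at label CD11b and 44.2, 56.7 and 55.7 CPM at label CD8. Clec4a4, the lectin DCIR2 bound by the 33D1 antibody, was at 0.458, 0 and 1.02 CPM at label CD11b and 49.2, 59.2 and 50.9 CPM at label CD8. Sirpb1a, an activating relative of SIRPα, was at 0.593 ± 0.529 against 80.9 ± 3.21 CPM, the sodium-calcium exchanger gene Slc8a2 at 0.511 ± 0.188 against 60.7 ± 0.88 CPM, the matrix protein gene Spon1 at 0.254 ± 0.194 against 27.7 ± 4.64 CPM and the transporter gene Abca9 at 0.267 ± 0.262 against 30.1 ± 3.21 CPM. Slc44a5 (1 count at label CD11b), Cdhr3 and Scel (2 counts each) had count ratios of 241, 168 and 130.5, with lower bounds of 42.7, 46.1 and 35.7.

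Ranked by p, the list shifted to abundant genes. At label CD11b the leading names were Mpeg1, a pore-forming protein of phagocytes (2795 ± 98.9 against 371 ± 4.75 CPM), Cst3, the cathepsin inhibitor cystatin C (3024 ± 190.0 against 397 ± 28.2 CPM), and the lysosomal thioesterase gene Ppt1 (2169 ± 128 against 168 ± 28.1 CPM). The proteases Adam8 (1091 ± 67.4 against 174 ± 17 CPM) and Ece1 (1064 ± 16.6 against 216 ± 13.3 CPM) followed. At label CD8 the smallest p belonged to Tgm2, a transglutaminase that cross-links proteins, at 33.3, 28.3 and 27 CPM at label CD11b and 1543, 1748 and 1598 CPM at label CD8. Its log2 fold change was -5.78 ± 0.11 (SE; edgeR quasi-likelihood, adjusted p = 2.33e-16). Vegfa, the vascular growth factor, was at 27.5, 24.8 and 30.6 CPM at label CD11b and 441, 391 and 392 CPM at label CD8, and Ptgs2, the inducible cyclooxygenase, at 26, 25.3 and 37.1 CPM at label CD11b and 852, 680.1 and 845 CPM at label CD8. Neither gene had a library labelled CD11b near any library labelled CD8. Il1r2, a decoy receptor for interleukin 1, was at 49.7 ± 6.2 against 620.2 ± 22.5 CPM. Dscam, an adhesion molecule of neurons, was at 3.35 ± 1.15 against 194 ± 14.8 CPM.

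Scaled by exon length, Cd74, H2-Ab1 and H2-Eb1 were among the most abundant genes in both groups, at 8751, 3347 and 2523 CPM per kilobase at label CD11b and 7337, 3001 and 2319 at label CD8. Cst3 (2389) and Psap (2193 CPM per kilobase), the precursor of lysosomal saposins, were among the 10 most abundant at label CD11b; at label CD8 they stood at 313 and 583 CPM per kilobase.

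Among 55 lineage transcription factors tested, 11 were higher at label CD11b, 27 were higher at label CD8 and 17 were not called, with a median log2 fold change of -0.47. Irf8, required for cDC1, was at 1087, 908 and 1016 CPM at label CD11b and 179.8, 165 and 220.1 CPM at label CD8. Irf4, required for many cDC2 functions, was at 34.6, 30.1 and 32.2 CPM at label CD11b and 226, 225 and 166 CPM at label CD8. The 2 factors ran in opposite directions, with log2 fold changes of 2.41 ± 0.11 and -2.67 ± 0.13. Id2, an inhibitor of E proteins, was at 458 ± 90.8 against 133 ± 13 CPM and the MYC relative Mycl at 163 ± 13.2 against 54 ± 7.85 CPM, both higher at label CD11b. Batf3, the partner of IRF8 in cDC1, differed less, at 61.4, 46.4 and 48.3 CPM at label CD11b and 25.7, 35.6 and 34.5 CPM at label CD8. Its groups did not overlap and the log2 fold change was 0.70 ± 0.16 (edgeR quasi-likelihood, adjusted p = 0.0026).

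On the cDC2-like side, label CD8, Zeb2, a repressor that opposes the cDC1 fate, was at 34.3, 11.9 and 26.7 CPM at label CD11b and 258, 226 and 214 CPM at label CD8. Klf4, required for part of the cDC2 lineage, was at 171 ± 30.8 against 870.1 ± 53.5 CPM, and Relb, of the alternative NF-κB pathway, at 133 ± 1.06 against 362 ± 11.1 CPM. Tbx21, which encodes T-bet, was at 3.97, 2.17 and 4.06 CPM at label CD11b and 95.2, 107 and 94.8 CPM at label CD8. Cebpb, a factor of macrophage and neutrophil genes, was at 7.74 ± 3.2 against 125 ± 23.7 CPM, and the stress-responsive repressor Bhlhe40 at 451 ± 14.6 against 1278 ± 11.5 CPM. Not called were Etv3 (1132 ± 58.8 against 988 ± 93.7 CPM) and the orphan receptor gene Nr4a3 (5787 ± 573 against 5332 ± 537 CPM).

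The interferon regulatory factors split. Of 9 tested, Irf8 and Irf5 (586 ± 25.6 against 351 ± 36.6 CPM) were higher at label CD11b, and Irf4, Irf2 and Irf9 were higher at label CD8. Irf2 (105 ± 6.19 against 133 ± 9.6 CPM) and Irf9 (86.5 ± 6.95 against 108 ± 10.1 CPM) lost their calls when some single libraries were left out, and without the library labelled CD8, replicate 2, the family had 3 calls instead of 5. Irf7 (139 ± 18.1 against 174 ± 28.9 CPM), Irf1 (114 ± 13.1 against 97 ± 3.21 CPM) and Irf3 (37.8 ± 8.15 against 34.4 ± 5.74 CPM) were not called. Irf7 was, however, called higher at label CD8 under several other settings, among them DESeq2 and the fit of all 10 libraries.

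Notch2 signalling maintains splenic cDC2. Of 27 genes of the Notch pathway, 8 were higher at each label and 11 were not called (59.3% called, against 33.8% of all genes tested). Dtx1, a ubiquitin ligase and Notch target, was at 2.52, 4.04 and 4.71 CPM at label CD11b and 233, 213 and 254 CPM at label CD8, with the groups far apart. Notch4 ran the other way, at 135, 139 and 131 CPM at label CD11b and 12.9, 11.2 and 15 CPM at label CD8. The ligand genes Jag2 (67.7 ± 3.63 against 10.4 ± 4.06 CPM) and Jag1 (8.47 ± 0.87 against 28.1 ± 4.58 CPM) were higher at label CD11b and at label CD8, respectively, and the coactivator gene Maml3 at label CD8 (8.17 ± 1.39 against 50.8 ± 3.19 CPM). Lfng, which modifies Notch receptors, was not called (118 ± 18.8 against 118 ± 6.71 CPM).

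Cytokine and growth factor receptors leaned to label CD8 (cDC2-like): of 26 tested, 14 were higher there, 4 at label CD11b and 8 were not called. Csf1r, the receptor for the macrophage growth factors CSF1 and IL-34, was at 21, 13.3 and 22.6 CPM at label CD11b and 301, 339 and 238 CPM at label CD8. Il21r was at 53.4 ± 20.1 against 365 ± 33.5 CPM, Il4ra at 158 ± 12.3 against 422 ± 17.4 CPM and Il2rg, the common gamma chain, at 15.6 ± 2.27 against 102 ± 16.1 CPM. The β chains of the GM-CSF, IL-3 and IL-5 receptors ran the other way, with Csf2rb at 873 ± 84.6 against 349 ± 37.8 CPM and Csf2rb2 at 189 ± 16.8 against 81.1 ± 12.4 CPM. Flt3, the receptor for the growth factor on which dendritic cells depend, was at 527 ± 12.6 against 312 ± 19.1 CPM. Ifngr1 (723 ± 43.5 against 748 ± 56 CPM) and Il10ra (294 ± 14.8 against 321 ± 52.5 CPM) were not called. Downstream of these receptors, 10 of 19 STAT, JAK and SOCS genes were higher at label CD8, including Socs3 (17.5 ± 2.41 against 60.4 ± 3.79 CPM), Stat3 (270.2 ± 13.6 against 412 ± 14.4 CPM) and Stat4 (8.53 ± 2.46 against 31.5 ± 3.04 CPM). The kinase gene Tyk2 alone was higher at label CD11b (184 ± 8.33 against 107 ± 12.6 CPM).

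The NF-κB list was the most lopsided of the signalling lists by count: 20 of 25 genes were higher at label CD8, 1 at label CD11b and 4 were not called, with a median log2 fold change of -0.78. The inhibitors Nfkbie (259 ± 12.3 against 942 ± 80.8 CPM) and Nfkbiz (123 ± 9.9 against 451 ± 14.5 CPM), the subunits Nfkb1 (310.3 ± 20.5 against 719 ± 40.5 CPM) and Rel (903 ± 116 against 1688 ± 85 CPM), and the feedback enzyme Tnfaip3, or A20 (341 ± 15.4 against 789 ± 95.5 CPM), were all higher there. Immediate early genes, which dissociation and sorting of cells can induce, moved alongside: 15 of 30 were higher at label CD8, 3 at label CD11b and 12 were not called. Jun was at 289.7, 145 and 193 CPM at label CD11b and 1223, 715 and 695 CPM at label CD8 and Fosb at 1347 ± 183 against 3049 ± 308 CPM, whereas Egr3 was higher at label CD11b (638 ± 62 against 284 ± 66.1 CPM) and Nr4a3 was not called. The part of cell handling in these differences was not tested.

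**Figure D3:**
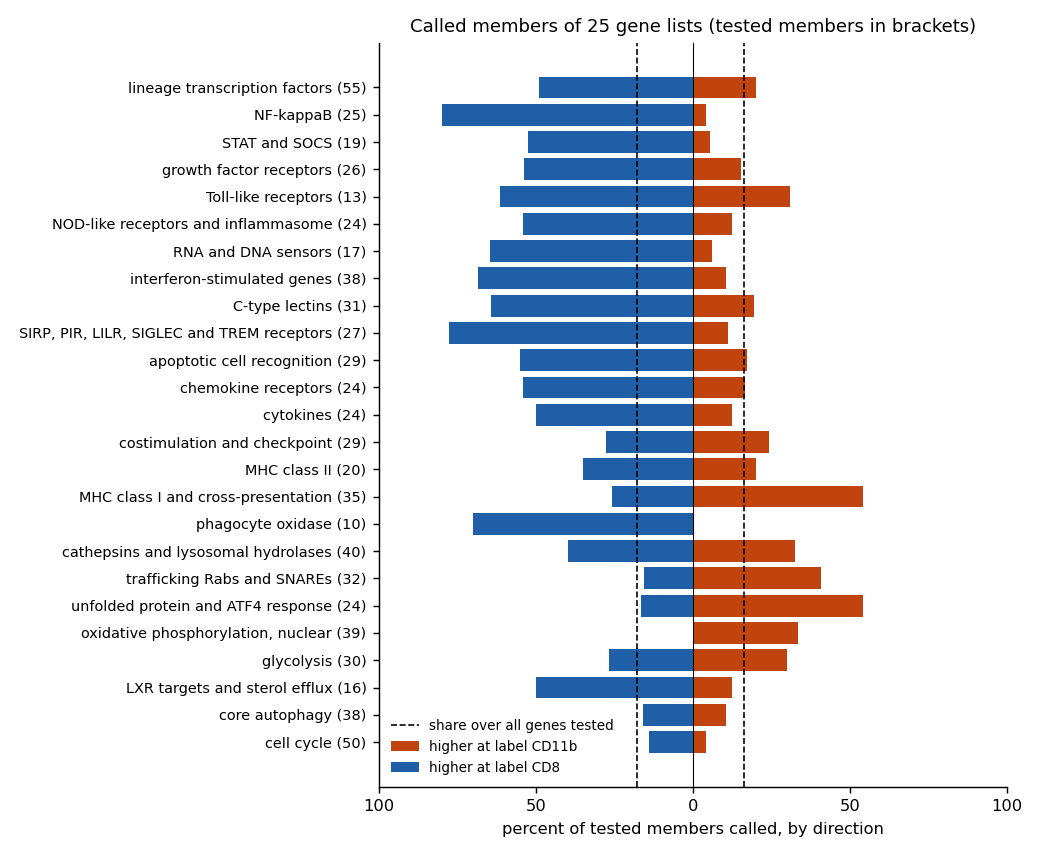
Percent of tested members called in each direction for 25 gene lists, with the number tested in brackets; red bars to the right are higher at label CD11b and blue bars to the left higher at label CD8. Dashed lines mark the shares over all genes tested, 16.1% and 17.8%.

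The Toll-like receptors divided by member. All 13 tested genes are given. Tlr3, the endosomal sensor of double-stranded RNA, was at 153, 165 and 149 CPM at label CD11b and 17.8, 15.9 and 22.9 CPM at label CD8. Tlr11 and Tlr12, the sensors of Toxoplasma profilin, were at 104 ± 10.5 against 9.4 ± 4.12 CPM and 58.3 ± 3.53 against 5.43 ± 2.04 CPM, and the Toll-like protein gene Cd180 was at 185 ± 26.4 against 92.6 ± 3.69 CPM. These 4 were higher at label CD11b (cDC1-like), with no overlap between the labels.

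At label CD8 (cDC2-like) stood Tlr7, the endosomal sensor of single-stranded RNA, at 3.28, 5.61 and 2.77 CPM at label CD11b and 51.3, 36.2 and 40.2 CPM at label CD8, and its relative Tlr8 at 0.175 ± 0.302 against 4.08 ± 0.937 CPM. The sensors of bacterial lipoproteins, Tlr2 (11.6 ± 1.24 against 47.3 ± 2.82 CPM), Tlr1 (2.27 ± 1.35 against 30.3 ± 3.71 CPM) and Tlr6 (0.726 ± 0.272 against 5.32 ± 0.536 CPM), and the flagellin receptor Tlr5 (2.44 ± 0.813 against 25.1 ± 1.85 CPM) were higher there too. Tlr9, a sensor of CpG DNA (66.5 ± 10.3 against 116 ± 16.5 CPM), and Tlr13, a sensor of bacterial ribosomal RNA (37.3 ± 3.96 against 66.3 ± 13.4 CPM), differed by less than 2-fold in the same direction. Tlr4, the endotoxin receptor, was low in both groups and not called (1.67 ± 0.691 against 1.41 ± 1.1 CPM). Of 17 adaptors and accessory proteins, 8 were higher at label CD8 and 4 at label CD11b. Ticam2, an adaptor of TLR4, was at 1.11 ± 0.189 against 25.1 ± 0.668 CPM, the endosomal peptide transporter genes Slc15a3 at 81.1 ± 13.1 against 258 ± 32.9 CPM and Slc15a4 at 36.2 ± 4.25 against 88.5 ± 9.87 CPM, and Irak3, an inhibitory kinase-like protein, at 0.673 ± 0.442 against 7.14 ± 2.29 CPM. The chaperone gene Hsp90b1, needed to fold these receptors, was higher at label CD11b (1191 ± 85 against 473 ± 19.4 CPM), and Myd88 was not called (65.7 ± 5.21 against 63.9 ± 13 CPM).

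Cytosolic sensors leaned to label CD8. Of 24 NOD-like receptor and inflammasome genes, 13 were higher at label CD8, 3 at label CD11b and 8 were not called. Nod1, a sensor of bacterial peptidoglycan, was at 30.8, 25.7 and 26.2 CPM at label CD11b and 185, 163 and 162 CPM at label CD8. Nlrp3 was at 135 ± 13.5 against 449 ± 29.5 CPM, Nlrc4 at 1.92 ± 1.84 against 33.8 ± 7.9 CPM, and Il1b, the cytokine that inflammasomes process, at 664 ± 64 against 1528 ± 146 CPM. Nlrc5, an activator of MHC class I genes, was higher at label CD11b (345 ± 9.81 against 192 ± 22 CPM), as was Nlrp1b (79.7 ± 10.5 against 36.7 ± 3.75 CPM). Of 17 RNA and DNA sensor genes tested, 11 were higher at label CD8, 1 at label CD11b and 5 were not called. Ddx58, which encodes the viral RNA sensor RIG-I, was at 1.75, 1.94 and 3.6 CPM at label CD11b and 77.4, 88 and 90.6 CPM at label CD8, and the related sensor genes Ifih1 (MDA5) and Ddx60 were at 33.6 ± 7.93 against 92.1 ± 13.6 CPM and 2.54 ± 0.822 against 39.4 ± 4.65 CPM. Within the interferon-inducible p200 cluster on chromosome 1, Mndal (18.8 ± 0.543 against 116 ± 13.1 CPM) and Ifi203 (8.68 ± 3.02 against 73.5 ± 6.13 CPM) were higher at label CD8. Ifi205 ran against its neighbours, at 233, 247 and 229.8 CPM at label CD11b and 39.5, 32.3 and 50.9 CPM at label CD8, and Ifi207 was not called (127 ± 15.6 against 118 ± 14.1 CPM).

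Interferon-stimulated genes were mostly higher at label CD8 (cDC2-like): 26 of 38 tested, against 4 at label CD11b and 8 not called, with a median log2 fold change of -1.48. Oas2, an enzyme that makes 2-5 oligoadenylates, was at 0.0763, 0.449 and 1.75 CPM at label CD11b and 38.9, 59.9 and 49.7 CPM at label CD8. Rtp4 was at 0.412 ± 0.169 against 33.8 ± 2.12 CPM, Oasl2 at 3.92 ± 1.49 against 81.6 ± 7.11 CPM, Rsad2 (viperin) at 5.71 ± 1.34 against 42 ± 0.716 CPM and Ifit1, which binds viral RNA ends, at 0.95 ± 0.231 against 18.9 ± 4.27 CPM. The 4 genes higher at label CD11b were Mx1, Trim30a, Oasl1 and Phf11b, named after their values were seen, and Trim30a was at 159.6 ± 6.35 against 107 ± 13.2 CPM. Phf11b lost its call when some single libraries were left out. Not called were Irf7, Trim30d (59.2 ± 9.55 against 47.1 ± 4.87 CPM) and Ifi35 (46.3 ± 4.99 against 42.5 ± 4.46 CPM). Of 20 immunity GTPases, Gbp2b was at 157 ± 45.7 against 7.67 ± 3.51 CPM and Gbp7 at 1.94 ± 0.564 against 23.1 ± 3.05 CPM, higher at opposite labels; the list had 3 calls at label CD11b and 7 at label CD8.

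The promoters of 6 interferon-inducible genes called in opposite directions are printed. The genes were picked by name, and for each the first promoter that held a match to the element below was taken. That all 6 share the element follows from this choice and is not a result. The sequences are RefSeq promoters on GRCm38.p6, 250 bases before to 50 after an annotated start, read along the gene's strand; capitals mark each match, on either strand, to GAAA, any 2 bases, GAAA, the core of the interferon-stimulated response element bound by IRF and STAT factors. Isg15, Ifit3, Rsad2 and Ifi203 were higher at label CD8; Ifi205 and Trim30a were higher at label CD11b.
Isg15: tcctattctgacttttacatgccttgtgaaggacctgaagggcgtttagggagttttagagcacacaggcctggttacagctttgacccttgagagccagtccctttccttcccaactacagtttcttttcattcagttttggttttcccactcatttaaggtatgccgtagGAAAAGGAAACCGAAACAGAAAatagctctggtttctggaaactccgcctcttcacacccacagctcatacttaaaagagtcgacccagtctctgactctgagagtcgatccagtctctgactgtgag
Ifit3: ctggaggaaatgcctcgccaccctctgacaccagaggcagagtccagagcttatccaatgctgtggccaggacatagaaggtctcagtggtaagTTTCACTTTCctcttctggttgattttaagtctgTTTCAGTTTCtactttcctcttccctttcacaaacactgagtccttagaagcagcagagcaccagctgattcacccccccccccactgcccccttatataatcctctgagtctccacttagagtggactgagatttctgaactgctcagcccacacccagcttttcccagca
Rsad2: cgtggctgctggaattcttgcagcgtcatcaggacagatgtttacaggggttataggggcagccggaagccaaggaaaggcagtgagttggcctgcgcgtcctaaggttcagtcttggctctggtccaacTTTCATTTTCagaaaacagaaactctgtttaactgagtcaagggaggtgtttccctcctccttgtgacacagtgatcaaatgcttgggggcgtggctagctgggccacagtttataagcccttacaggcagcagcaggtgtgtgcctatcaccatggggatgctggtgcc
Ifi203: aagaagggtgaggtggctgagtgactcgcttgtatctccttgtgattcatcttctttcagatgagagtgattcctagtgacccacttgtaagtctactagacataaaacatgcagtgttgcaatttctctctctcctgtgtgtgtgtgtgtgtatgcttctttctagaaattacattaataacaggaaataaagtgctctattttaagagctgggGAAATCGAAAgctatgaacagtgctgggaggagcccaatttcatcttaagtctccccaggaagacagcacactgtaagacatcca
Ifi205: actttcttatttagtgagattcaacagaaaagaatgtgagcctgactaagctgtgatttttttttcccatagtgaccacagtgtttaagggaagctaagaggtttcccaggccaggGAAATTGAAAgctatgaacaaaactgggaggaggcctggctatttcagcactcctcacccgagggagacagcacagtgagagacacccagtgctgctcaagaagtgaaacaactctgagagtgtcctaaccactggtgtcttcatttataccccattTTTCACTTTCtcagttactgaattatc
Trim30a: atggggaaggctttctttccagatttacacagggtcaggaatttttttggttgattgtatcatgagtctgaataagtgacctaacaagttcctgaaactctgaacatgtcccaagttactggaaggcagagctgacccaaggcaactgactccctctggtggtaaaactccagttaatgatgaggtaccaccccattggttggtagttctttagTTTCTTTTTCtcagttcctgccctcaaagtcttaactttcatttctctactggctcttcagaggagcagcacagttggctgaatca
Isg15 had 3 overlapping matches, the first starting 78 bases before the start of transcription, and Ifi203 had 1 match 35 bases before it. Ifi205 had 2 matches, 1 of them 134 bases before the start and the other after it. Rsad2 had 1 match at 120 bases and Trim30a 1 at 36 bases before the start.

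In all, 9 motifs known for factors of dendritic cells were searched on both strands of the 32851 RefSeq promoters of 300 bases. The response element core was present for 3.99% of all genes with a promoter and for 4.12% of the 8718 genes tested that had one. It was present for 4.84% of the genes called over 4-fold higher at label CD11b (12 of 248 with a promoter) and for 9.51% of those called over 4-fold higher at label CD8 (37 of 389). Among interferon-stimulated genes it was present for 11 of 21 higher at label CD8, 2 of 3 higher at label CD11b and 4 of 7 not called. The ETS-IRF element (GGAA, any 2 bases, GAAA), which differs from it at 1 letter, was present for 3.16%, 2.97%, 1.61% and 4.63% of the same 4 sets in that order (all genes, genes tested, over 4-fold higher at label CD11b, over 4-fold higher at label CD8). The AP-1 site TGANTCA gave 8.97%, 6.01%, 12.5% and 11.3%. The RBPJ (Notch) site GTGGGAA gave 7.25%, 7.19%, 10.1% and 7.97%. The ZEB E-box CACCTG gave 22.6%, 20.1%, 30.6% and 27%. The PU.1 site (GAGG directly followed by AAGT) gave 3.69%, 4.13%, 5.65% and 5.91%. The NF-κB site (GGGAC directly followed by TTTCC) gave 0.174%, 0.241%, 0.403% and 0.514%. The AP-1 site directly after GAAA gave 0.141%, 0.115%, 0.806% and 0.771%, and the AP-1 site 4 bases before GAAA 0.133%, 0.0574%, 0% and 0.257%; both contain the AP-1 site. These are descriptions of letters in a window, and no match was tested for binding.

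C-type lectins bind sugars and other ligands on microbes and cells. Of 31 tested, 20 were higher at label CD8, 6 at label CD11b and 5 were not called. Clec7a, or Dectin-1, the receptor for fungal β-glucan, was at 76.8, 108 and 105 CPM at label CD11b and 757, 930.5 and 616 CPM at label CD8. Ly75, or DEC-205, an endocytic receptor, was at 342, 411 and 352 CPM at label CD11b and 47.3, 45.3 and 53.6 CPM at label CD8. Klrd1 (CD94) was at 6.17 ± 0.753 against 46.6 ± 6.56 CPM and Cd209a, a mouse relative of DC-SIGN, at 4.5 ± 2.41 against 62.1 ± 12.1 CPM. A row of 5 adjacent lectin genes on chromosome 6 (122921848 to 123143999), Clec4a1, Clec4a3, Clec4a4, Clec4b1 and Clec4a2, was higher at label CD8, with log2 fold changes from -5.14 to -6.82, whereas their relative Clec4b2 had counts only at label CD11b. Reads that map to more than 1 place are not counted, so values of such near-identical relatives are uncertain.

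Rows of this kind, at least 4 adjacent tested protein-coding genes called over 2-fold in 1 direction, numbered 12, of which 10 were higher at label CD8. They included Sirpb1a, Sirpb1b and Sirpb1c with Car2 on chromosome 3, Cd101 with Ptgfrn, Cd2 and Igsf3 elsewhere on chromosome 3, Pilra, Pilrb1 and Pilrb2 on chromosome 5, Pira2, Lilra6 and Lair1 on chromosome 7, the Ifit genes on chromosome 19 and 4 Ifitm genes on chromosome 7. A further row on chromosome 5 (120648812 to 120777661) joined Rasal1, Dtx1, Oas2 and Oas3. The 2 rows higher at label CD11b were Ppef2, Naaa, Sdad1 and Cxcl9 on chromosome 5 (92226679 to 92328079) and Grin1, Man1b1, Dpp7, Uap1l1 and Sapcd2 on chromosome 2 (25291181 to 25378213). The genes in these rows were named after their values were seen. Calls over 2-fold were more frequent at label CD8 among all genes tested too (9.48% against 7.08% at label CD11b). Whether the number of rows exceeds what these shares give was not tested.

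Paired activating and inhibitory receptors of the immunoglobulin superfamily were mostly higher at label CD8 (cDC2-like). Of 27 SIRP, PIR, LILR, SIGLEC and TREM family genes, 21 were higher at label CD8, 3 at label CD11b and 3 were not called, with a median log2 fold change of -2.97. Cd22, a sialic acid receptor known from B cells, was at 13.6, 8.53 and 14.1 CPM at label CD11b and 223, 196 and 199.8 CPM at label CD8. Siglecg was at 23.3 ± 4.24 against 172 ± 13.7 CPM and Lair1, a collagen receptor, at 16.6 ± 5.64 against 80.3 ± 3.09 CPM. Treml4, which binds dying cells, was higher at label CD11b (153 ± 11.3 against 44.3 ± 4.54 CPM). B cell markers moved with these receptors: of 14 tested, including Cd22, 10 were higher at label CD8, 0 at label CD11b, and the summed level was 294 to 372 CPM at label CD11b and 586 to 1187 CPM at label CD8. Cd79a was at 1.66 ± 0.336 against 8.34 ± 4.11 CPM, and Ms4a1 (CD20) was not called (17.7 ± 2.5 against 15.1 ± 6.13 CPM). The part of B cells in the level of Cd22 and of the other receptors was not tested.

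The MS4A list had 6 of 10 tested genes higher at label CD8 and 0 at label CD11b. Among them were Ms4a6c (18.5 ± 5.53 against 106 ± 2.96 CPM), Ms4a4c (1.7 ± 0.744 against 52.9 ± 4.05 CPM) and the related transmembrane genes Tmem176b (31.6 ± 4.53 against 234 ± 13.7 CPM) and Tmem176a (22.1 ± 4.02 against 108 ± 9.84 CPM). Of 8 CD300 receptors tested, 6 were higher at label CD8, led by Cd300ld (2.26 ± 0.742 against 58.8 ± 14.9 CPM), Cd300lf (9.32 ± 3.37 against 102 ± 8.42 CPM) and Cd300a (35 ± 6.88 against 172 ± 18.1 CPM). Of 11 Fc receptor genes, 6 were higher at label CD8 and 3 at label CD11b. The shared signalling chain Fcer1g was at 20.2, 20.8 and 26.2 CPM at label CD11b and 201, 212 and 172 CPM at label CD8, the activating receptors Fcgr4 at 1.45 ± 0.317 against 11.2 ± 2.4 CPM and Fcgr3 at 0.749 ± 0.514 against 8.45 ± 1.87 CPM, and Fcgrt, the neonatal Fc receptor that recycles antibody, was higher at label CD11b (94 ± 15.8 against 42.4 ± 3.38 CPM). Without the library labelled CD8, replicate 2, 5 of the Fc receptor genes were called instead of 9.

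Receptors for dying cells and lipoproteins were split by gene. Cd36, a scavenger receptor for lipids and dying cells, was at 177, 243 and 187 CPM at label CD11b and 24, 10.3 and 11.3 CPM at label CD8, higher at label CD11b (cDC1-like), as was the HDL receptor gene Scarb1 (132 ± 7.28 against 72.5 ± 9.79 CPM). Lrp1, an endocytic receptor for many ligands, was at 67.7, 34 and 51 CPM at label CD11b and 437, 434 and 275 CPM at label CD8, higher at label CD8. Axl, a receptor for bridged phosphatidylserine, was at 8.61 ± 0.587 against 57.7 ± 7.02 CPM, and Itgb3 at 7.15 ± 1.81 against 52.5 ± 2.51 CPM. In all, 16 of 29 genes for recognition of dying cells were higher at label CD8, 5 at label CD11b and 8 were not called; Dock2 (687 ± 37.7 against 771 ± 19.9 CPM) was among the last. Complement genes had 9 of 13 higher at label CD8 and 0 at label CD11b, among them C3 (8.26 ± 0.533 against 66.1 ± 12 CPM), the properdin gene Cfp (45.3 ± 13.6 against 143 ± 11 CPM) and C1qb (4.58 ± 1.59 against 24.3 ± 2.74 CPM). Red pulp macrophage markers, which include Axl and the C1q genes, moved alongside: of 16, 11 were higher at label CD8 and 1 at label CD11b, with sums of 171 to 205 CPM at label CD11b and 346 to 473 CPM at label CD8. Of the defining markers, Adgre1 (F4/80) was at 2.89 ± 2.19 against 112 ± 22.9 CPM, while Spic (18.8 ± 2.47 against 13.6 ± 4.57 CPM) and Vcam1 (39.6 ± 8.95 against 37.7 ± 0.739 CPM) were not called. The part of macrophages in these values was not tested.

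Genes for digestion in lysosomes differed in both directions. Of 40 tested, 13 were higher at label CD11b, 16 at label CD8 and 11 were not called, and the median log2 fold change was 0.07. The summed level was nonetheless 16653 to 17941 CPM at label CD11b (cDC1-like) and 6688 to 7164 CPM at label CD8. Most of that gap lay in Psap, Cst3, Naaa and Ppt1 (2169 ± 128 against 168 ± 28.1 CPM). Cst3 encodes an inhibitor of cathepsins, and Naaa and Ppt1 were also on the cDC1 marker list. Most called cathepsin genes were higher at label CD8, so the sum does not stand for the list as a whole. Cst3 was at 3012, 3220.0 and 2841 CPM at label CD11b and 377, 384 and 429 CPM at label CD8. Naaa, an acid amidase, was at 1214, 1539.8 and 1412 CPM at label CD11b and 112, 113 and 156 CPM at label CD8. Gusb, β-glucuronidase, was at 519.9 ± 43 against 61.9 ± 2.64 CPM and Psap at 6017 ± 162 against 1601 ± 99.4 CPM. In the other direction stood the carboxypeptidase gene Ctsa (62.1 ± 6.06 against 268 ± 26 CPM) and Lgmn (56.7 ± 1.87 against 198 ± 20.9 CPM), an endopeptidase that activates endosomal receptors and cleaves the invariant chain. Ctsb was not called (266 ± 30.4 against 305 ± 37.7 CPM).

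The MHC class I and cross-presentation list was higher at label CD11b for 19 of 35 genes and at label CD8 for 9, with 7 not called and a median log2 fold change of 0.42. Wdfy4, required for cross-presentation by cDC1, was at 5933, 5329 and 5725 CPM at label CD11b and 2433, 2242 and 2463 CPM at label CD8. The peptide-loading chaperones Pdia3 (748 ± 99.3 against 259 ± 16.3 CPM) and Calr (1362 ± 90.3 against 724 ± 18.6 CPM), the transporter subunit Tap2 (223 ± 6.33 against 109 ± 3.83 CPM), the proteasome activator Psme1 (819 ± 103 against 409 ± 17.2 CPM), the immunoproteasome subunit Psmb8 (514 ± 30.1 against 267 ± 19.4 CPM) and the lipid-presenting Cd1d1 (41.8 ± 9.37 against 8.79 ± 0.96 CPM) were higher at label CD11b. The class I heavy chain H2-D1 did not differ by the test (1204 ± 52.4 against 1169.8 ± 54.3 CPM), and B2m, the shared light chain, was at 898 ± 134 against 1149 ± 71.6 CPM; B2m lost its call without the library labelled CD8, replicate 2. Rac2, a GTPase of the phagocyte oxidase, was higher at label CD8 (91 ± 4.91 against 208 ± 9.59 CPM).

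The phagocyte oxidase makes superoxide in phagosomes. Of its 10 genes 7 were higher at label CD8 (cDC2-like), 0 were higher at label CD11b and 3 were not called. The catalytic subunit gene Cybb was at 52, 45.4 and 69.2 CPM at label CD11b and 445, 491 and 433 CPM at label CD8, the proton channel gene Hvcn1 at 6.5 ± 2.71 against 48.3 ± 4.6 CPM and Cyba at 165 ± 14.2 against 239 ± 11.5 CPM. Ncf1 (374 ± 29.6 against 408 ± 25.7 CPM), Ncf4 (90.4 ± 4.64 against 80.3 ± 4.15 CPM) and Rac1 (206 ± 4.82 against 187 ± 13 CPM) were not called.

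Of 20 MHC class II genes, 4 were higher at label CD11b, 7 at label CD8 and 9 were not called. The chains H2-Aa (4511 ± 342 against 4408 ± 251 CPM), H2-Ab1 and H2-Eb1 (4905 ± 162 against 4508 ± 284 CPM) and the class II activator Ciita (685 ± 27.5 against 719 ± 34.3 CPM) were not called. Paralogs of the peptide exchange factor H2-DM differed: H2-DMb2 was at 51.7, 63.3 and 66.8 CPM at label CD11b and 249.8, 236 and 247 CPM at label CD8 and H2-DMb1 at 215, 249.6 and 224 CPM at label CD11b and 132, 128 and 137 CPM at label CD8, so that the groups did not overlap for either gene and the directions were opposite. H2-Eb2 was higher at label CD8 (20.7 ± 6.5 against 132 ± 18.4 CPM), as were the endosomal enzymes Ctss (399 ± 25.3 against 717 ± 67.6 CPM) and Ifi30, or GILT (280.4 ± 38 against 516 ± 21.8 CPM).

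Vesicle traffic and the endoplasmic reticulum leaned to label CD11b (cDC1-like). Of 32 Rab, SNARE and sorting nexin genes, 13 were higher there, 5 at label CD8 and 14 were not called. Rab7b, a GTPase of late endosomes, was at 743, 874 and 729 CPM at label CD11b and 51.4, 47.8 and 89.7 CPM at label CD8, Rab32 at 100.3 ± 6.72 against 21.3 ± 0.938 CPM, Snx22 at 62.7 ± 14.3 against 7.91 ± 2.8 CPM and Rab43, which takes part in cross-presentation, at 117 ± 0.451 against 57.3 ± 2.25 CPM. Of 24 genes of the unfolded protein and ATF4 response, 13 were higher at label CD11b, 4 at label CD8 and 7 were not called, with a median log2 fold change of 0.46. Hsp90b1 was at 1144, 1289.5 and 1141 CPM at label CD11b and 495, 466 and 458 CPM at label CD8, Hyou1 at 285 ± 2.29 against 136 ± 6.29 CPM, Manf at 72.7 ± 2.8 against 26.4 ± 1.97 CPM and Sdf2l1 at 73 ± 1.26 against 27.3 ± 3.22 CPM. Sesn2, a stress-inducible inhibitor of mTORC1 signalling, was higher at label CD8 (47.2 ± 6.86 against 101 ± 3.79 CPM), and Atf4 itself was not called (316 ± 37.3 against 273 ± 29.9 CPM).

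Of 24 chemokine receptors and related receptors tested, 13 were higher at label CD8 (cDC2-like), 4 at label CD11b and 7 were not called. Besides Xcr1, Ccr9, the receptor for CCL25, was higher at label CD11b (30.3 ± 5.4 against 5.97 ± 1.07 CPM). Higher at label CD8 were Ccr6 (1.33 ± 0.307 against 21.8 ± 7.19 CPM), Cx3cr1 (3.71 ± 2.02 against 32.4 ± 7.16 CPM) and Gpr183, the oxysterol receptor that places cDC2 in the bridging channels of the spleen, at 53.6, 29.2 and 49.5 CPM at label CD11b and 151, 129.7 and 142 CPM at label CD8. Chemokine ligands had 4 calls in each direction among 13. Cxcl9, a ligand of CXCR3 on T cells, was at 218, 197 and 164 CPM at label CD11b and 17, 11.2 and 11.5 CPM at label CD8, and Ccl22 at 61.6 ± 20.1 against 14.7 ± 5.49 CPM and Cxcl16 at 375 ± 24.6 against 175 ± 25.5 CPM, all higher at label CD11b. Ccl9 (0.812 ± 0.625 against 32.5 ± 7.71 CPM) and Ccl6 (18.5 ± 1.97 against 46.1 ± 6.18 CPM) were higher at label CD8.

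Of 24 cytokine genes, 12 were higher at label CD8, 3 at label CD11b and 9 were not called. Il12b, the p40 subunit of interleukin 12, was at 170.1, 239 and 196 CPM at label CD11b and 23.7, 38.6 and 24 CPM at label CD8, higher at label CD11b. Il1rn, the interleukin 1 receptor antagonist, was at 6.1, 5.09 and 4.62 CPM at label CD11b and 84.2, 105 and 81 CPM at label CD8, Ltb, lymphotoxin β, at 4.98 ± 2.42 against 53.7 ± 4.7 CPM and Tgfb1 at 268 ± 19.2 against 426 ± 3.83 CPM, all higher at label CD8. Of 7 interleukin 1 receptor family genes, 4 were higher at label CD8, among them Il1r2 at 55.5, 50.5 and 43.2 CPM at label CD11b and 612, 646 and 603 CPM at label CD8, and 1 at label CD11b, a total that was 3 without the library labelled CD8, replicate 2. Among 29 costimulation and checkpoint genes, 7 were higher at label CD11b, 8 at label CD8 and 14 were not called. Btla, which engages HVEM, was at 301 ± 29.9 against 62.8 ± 3.8 CPM, Slamf8 at 73.4 ± 7.22 against 30.3 ± 7.8 CPM and the T cell inhibitor gene Havcr2 (TIM-3) at 699 ± 50.4 against 479 ± 45.2 CPM. Cd274, which encodes PD-L1, was at 86 ± 8.53 against 194 ± 17.7 CPM and Icosl at 57.1 ± 7.19 against 128 ± 10.4 CPM, both higher at label CD8. Cd83 (1818 ± 69.4 against 1706 ± 248 CPM), Cd80 (72 ± 3.85 against 80.7 ± 5.22 CPM) and Cd40 were not called; mature dendritic cell markers had 5 calls in each direction among 14.

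**Figure D4:**
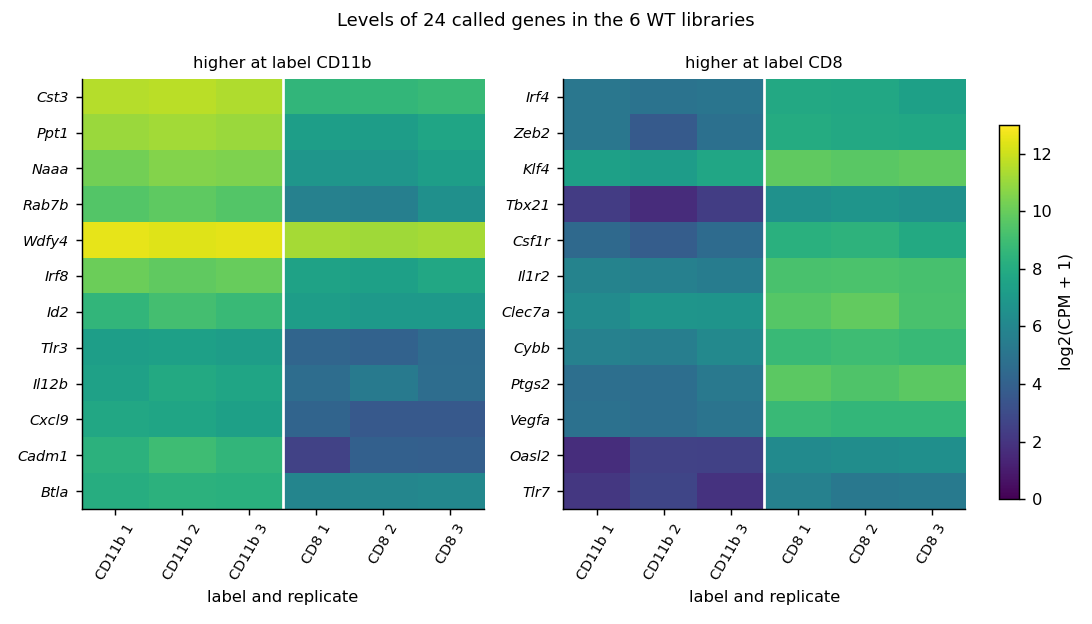
Level of 24 called genes in each WT library as log2(CPM + 1), 12 higher at label CD11b (left) and 12 higher at label CD8 (right); the white line parts the labels. In every row the 3 libraries of the higher label are brighter than the other 3.

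Integrins were called in both directions: 7 of 19 at label CD11b and 9 at label CD8. With Itgae, Itga3 (117 ± 4.43 against 7.69 ± 3.05 CPM) and Itga8 (66.6 ± 2.59 against 7.48 ± 1.09 CPM), chains of matrix receptors, were higher at label CD11b. With Itgam, Itgax, or CD11c, was higher at label CD8 (591 ± 29.7 against 995 ± 80.7 CPM), as was Itgb7, the partner chain of Itgae (108 ± 10.5 against 227 ± 40.6 CPM). Of other adhesion molecules, Cadm1, which binds CRTAM on T cells, was at 323, 505 and 376 CPM at label CD11b and 4.95, 14.7 and 14.4 CPM at label CD8 and the tetraspanin gene Cd81 at 375 ± 29 against 33.2 ± 9.55 CPM, higher at label CD11b. L1cam (5.29 ± 2.43 against 54.4 ± 4.54 CPM) and Cadm3 (4.73 ± 2.55 against 58.9 ± 13.4 CPM), a relative of Cadm1, were higher at label CD8. Of 21 semaphorin and plexin genes, 10 were higher at label CD8, including Plxnd1 (42.3 ± 1.14 against 372 ± 35.6 CPM), Plxnc1 (236 ± 18.9 against 894 ± 37.7 CPM) and Sema4d (169 ± 13.5 against 709 ± 26.4 CPM), and 4 at label CD11b, including Sema4f (75.5 ± 2.58 against 5.95 ± 1.38 CPM) and Sema4a (115 ± 11.6 against 33.4 ± 2.47 CPM). Actin regulators were divided, with 15 of 56 higher at label CD11b and 22 at label CD8; Fgd6, an activator of CDC42, was at 99.3 ± 8.54 against 7.86 ± 1.12 CPM and the motor protein gene Myo1e at 4.89 ± 1.37 against 82.9 ± 12.3 CPM.

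Of 30 glycolysis genes, 9 were higher at label CD11b, 8 at label CD8 and 13 were not called. The glucose transporters Slc2a3 (12.3 ± 1.01 against 129 ± 16.5 CPM), Slc2a6 (8.69 ± 3.41 against 100.1 ± 15.9 CPM) and Slc2a1 (12.5 ± 1.59 against 63 ± 14.5 CPM) and the lactate exporter gene Slc16a3 (5.11 ± 0.218 against 52.3 ± 1.6 CPM) were higher at label CD8. The kinases Hk3 (116 ± 4.57 against 8.37 ± 3.63 CPM), Pfkp (401 ± 12.7 against 118 ± 4.4 CPM) and Pfkfb3 (354 ± 75.8 against 181 ± 6.05 CPM) were higher at label CD11b, and Hk2 was not called (111 ± 9.09 against 114 ± 2.53 CPM). Nuclear genes of oxidative phosphorylation had 13 of 39 higher at label CD11b and 0 at label CD8, with small differences: Atp5b was at 429 ± 4.64 against 279 ± 12.1 CPM and Uqcrfs1 at 77 ± 8.27 against 50.9 ± 1.48 CPM, and the median log2 fold change was 0.29. In all, 33.3% of the list was called, near the 33.8% of all genes tested, though every call was at label CD11b. The 13 calls fell to 6 without the library labelled CD11b, replicate 3, and to 5 without the library labelled CD8, replicate 1. Of 25 antioxidant genes, 11 were higher at label CD11b, 6 at label CD8 and 8 were not called. Their median log2 fold change was 0.39. Gclc, which limits glutathione synthesis, was higher at label CD11b (148 ± 22.6 against 25.5 ± 2.12 CPM). Higher at label CD8 were Slc7a11, the cystine importer gene (3.69 ± 1.47 against 36 ± 1.67 CPM), and Fth1, ferritin heavy chain (420.2 ± 23.5 against 1244 ± 74.2 CPM).

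Genes of cholesterol efflux and of lipid mediators were more often called at label CD8 (cDC2-like). Of 16 targets of the oxysterol receptor LXR, 8 were higher at label CD8 and 2 at label CD11b. Abca1, which exports cholesterol, was at 13.4, 13.4 and 23.5 CPM at label CD11b and 62.7, 96.4 and 75.7 CPM at label CD8, Pltp at 8.18 ± 5.21 against 77 ± 12.9 CPM, Apoe at 178 ± 24.6 against 341 ± 62.9 CPM and Arl4c at 44.7 ± 3.35 against 383 ± 24.2 CPM. Of 30 sterol and fat synthesis genes, 22 were not called, among them Srebf2 (319.8 ± 7.42 against 334 ± 16.4 CPM) and Acly (148 ± 7.02 against 142 ± 3.07 CPM). Eicosanoid genes had 10 of 21 higher at label CD8 and 3 at label CD11b: besides Ptgs2, Lta4h, which makes leukotriene B4, was at 62.2 ± 5.28 against 227 ± 15.8 CPM and the prostaglandin receptor gene Ptger3 at 0.228 ± 0.275 against 21.2 ± 5.5 CPM, whereas the thromboxane synthase gene Tbxas1 was higher at label CD11b (36.3 ± 1.79 against 13.5 ± 1.43 CPM).

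Core autophagy genes, to which Atg16l1 belongs, were near the background: 10 of 38 were called (4 at label CD11b, 6 at label CD8), against 33.8% of all genes, and the median log2 fold change was -0.03. Gabarap (165 ± 15.3 against 94.3 ± 3.98 CPM) and the cargo receptor gene Sqstm1 (569 ± 43.5 against 358 ± 39.4 CPM) were higher at label CD11b, Uvrag (211 ± 18.4 against 319.8 ± 5.31 CPM) and Atg2a (118 ± 26.8 against 172 ± 8.38 CPM) at label CD8. Cell cycle genes had fewer calls than the background, 9 of 50: Mki67 (541 ± 56.2 against 638 ± 67.8 CPM) and Top2a (253 ± 17.4 against 279.9 ± 43.8 CPM) were not called, and the cyclin genes Ccnd1 (176 ± 7.53 against 519 ± 5.6 CPM) and Ccnd2 (15.2 ± 4.03 against 104 ± 14.1 CPM) and the inhibitor gene Cdkn1a (30.7 ± 7 against 129.8 ± 5.13 CPM) were higher at label CD8. In the BCL2 family, 8 of 22 were higher at each label; Bcl2l14 (105 ± 27.2 against 6.28 ± 0.416 CPM) and Bcl2l1, or BCL-XL (33.2 ± 3 against 10.3 ± 3.18 CPM), were higher at label CD11b and Mcl1 at label CD8 (654 ± 77.4 against 914 ± 56.3 CPM).

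Markers of other cell types were present at differing levels, and their part in the results was not tested. Of 15 T cell markers 4 passed the filter on low counts. Of these, 2 were higher at label CD8, among them Tcf7 (12.2 ± 2.73 against 68.7 ± 2.75 CPM), and Cd8b1 was higher at label CD11b. The list summed to 28.2 to 34.3 CPM at label CD11b and 87.1 to 92 CPM at label CD8. Cd3e, for a CD3 chain, and the T cell receptor gene Trac had 33 and 23 counts in all 3 libraries labelled CD11b together. Their counts at label CD8 are not given here. Cd8b1, the partner chain of CD8α on T cells, was at 8.93, 2.17 and 3.88 CPM at label CD11b with 0 counts at label CD8. NK cell markers, which include Tbx21, the sole member called of 3 tested, summed to 60.7 to 61.9 CPM at label CD11b and 147 to 162 CPM at label CD8. Neutrophil markers summed to 1.45 to 3.69 CPM at label CD11b and 3.33 to 7.42 CPM at label CD8. Plasmacytoid dendritic cell markers were divided, 5 of 13 higher at label CD11b and 3 at label CD8. Of the 5, Siglech was at 23 ± 10.5 against 1.67 ± 0.627 CPM and Pacsin1 at 21.9 ± 1.49 against 1.79 ± 0.138 CPM. Values of the 3 higher at label CD8 are not given here, so these 2 genes do not stand for the list. Its summed level was 189 to 285 CPM at label CD11b and higher at label CD8, 295 to 318 CPM. Of 10 monocyte markers tested, 5 were higher at label CD8, 2 at label CD11b and 3 were not called. Most of the list's sum was the immediate early gene Nr4a1 (2437 ± 129 against 3216 ± 317 CPM). The sum was 2587 to 2786 CPM at label CD11b and 3386 to 3995 CPM at label CD8. Ace (4.85 ± 1.49 against 193 ± 57.2 CPM) and Fn1 (2.88 ± 1.66 against 29.4 ± 16.6 CPM) were higher at label CD8, Treml4 and Cd14 (63.6 ± 14.2 against 37.2 ± 8.6 CPM) were higher at label CD11b, and Ly6c2 was not called (4.96 ± 1.52 against 2.51 ± 1.43 CPM). In bulk libraries of this kind, more cells of a type and more RNA per cell cannot be told apart.

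The difference between labels was also compared between genotypes. With all 10 libraries in 1 edgeR model, it differed between WT and KO for 3 of 14528 genes (0.0206%): Plcb4, a phospholipase C, and the guanylate-binding protein genes Gbp2 and Gbp3. Levels here are scaled over all 10 libraries. In WT, Gbp2 was at 69.9, 92.8 and 91.4 CPM at label CD11b and 49.8, 59.4 and 45.6 CPM at label CD8. Gbp3 was at 74.5, 108 and 101 CPM at label CD11b and 43.7, 65.1 and 72.6 CPM at label CD8. Plcb4 was at 68.3, 57.2 and 73.7 CPM at label CD11b and 13.3, 8.06 and 14.3 CPM at label CD8 in WT and at 112 and 114 CPM at label CD11b and 124 and 125 CPM at label CD8 in KO. Gbp2 was at 9.08 and 12.7 CPM at label CD11b and 34 and 55.6 CPM at label CD8 in KO and Gbp3 at 6.36 and 9.92 CPM at label CD11b and 33.8 and 41.7 CPM at label CD8 in KO, lower in the KO libraries labelled CD11b than in any other group. The number of such genes moved with the fit: it was 8 with the replicate number as a block and 11 with DESeq2. With a block by genotype and number, chosen after seeing the data, it was 28. It also moved with single libraries: it was 4, 3 and 5 without the WT libraries labelled CD11b, replicates 1, 2 and 3 in that order, and 6, 4 and 5 without those labelled CD8. Without KO libraries labelled CD11b it was 9 (replicate 1) and 20 (replicate 2), and without those labelled CD8 it was 22 (replicate 1) and 5 (replicate 2).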

How the data were processed

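Spleen dendritic cells were profiled by stranded total RNA sequencing. The authors deposited counts of uniquely mapped reads per gene from STAR 2.5.0a on GRCm38, per the submitters' processing notes; the annotation release is not given in the sources used here. The fourth column of each deposited table was used, which held 16.1 times as many gene counts as the opposite strand. Of 53379 gene identifiers, 53274 were matched to GENCODE gene names on GRCm38, and 105 were not. Reads mapping to several places, 23.58% to 25.53% in WT, are not in the counts, which affects near-identical genes.

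The 6 WT libraries were fitted in edgeR 4.0.16 (R 4.3.3; TMM scaling, filterByExpr, quasi-likelihood test, Benjamini-Hochberg adjustment over 12358 genes); genotypes were compared by an interaction term over all 10 libraries. Common dispersion was 0.0574. On simulated counts for this comparison, 11991 genes were tested, of which 97 were changed 2-fold and 96 were changed 4-fold. Of these, 61.9% and 84.4% were recovered, in that order, with 16 false calls among 157. Far fewer genes were changed than the 33.8% called in the data, so these shares need not hold there. Lists (65, with 1460 distinct genes, of which 1204 were tested) and members were chosen with earlier results of these data known, and are described by counts without a set test. Over the lists 61.5% of tested genes were called, a share that reflects their choice. Results are CPM of TMM-scaled libraries.

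Named were the 5 markers and Atg16l1, the 12 largest called fold changes (at least 5 CPM, groups not overlapping) and the 8 smallest p in each direction, the 10 most abundant genes per kilobase, and from each list up to 8 called members by p and up to 4 uncalled by level, or all members of lists of at most 14. A few genes that this rule names are not reported here, though they are included in the counts. Batf3, Zeb2, Id2, Mycl, Cd209a, Isg15, Ifit3, Cd3e, Trac and the neighbours in gene rows were named outside this rule, after their values were seen. Alternatives were RLE scaling, other filters, unstranded counts, removed RNA classes, DESeq2 1.42.0, limma 3.58.1 voom, all libraries, a replicate block, a fold threshold and leaving out each library.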

Additional observations from a re-analysis of the deposited data

Results flagged for a closer look

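Of the genes tested for a difference between genotypes in the contrast of the 2 labels, 3 stood out by the interaction term of the edgeR model over all 10 libraries. For Plcb4 the log2 difference (WT contrast minus KO contrast) was 2.62 ± 0.24 (SE; adjusted p = 4.72e-06), with levels of 66.4 ± 8.41 and 11.9 ± 3.35 CPM at labels CD11b and CD8 in WT (SD, n = 3) and of 113 ± 1.54 and 124 ± 0.608 CPM in KO (n = 2). For Gbp2 it was 2.74 ± 0.29 (edgeR adjusted p = 2.73e-05), with WT levels of 84.7 ± 12.9 CPM at label CD11b and 51.6 ± 7.07 CPM at label CD8, and KO levels of 10.9 ± 2.59 and 44.8 ± 15.2 CPM. For Gbp3 it was 2.84 ± 0.31 (edgeR adjusted p = 2.73e-05), with WT levels of 94.2 ± 17.5 and 60.5 ± 15 CPM and KO levels of 8.14 ± 2.52 and 37.8 ± 5.57 CPM in the same order. Gbp2 and Gbp3 lie beside each other on chromosome 3 (142560026 to 142638008) and belong to 1 gene family, so they may not be independent results. Groups of 3 were not examined for single outlying samples.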

How the results depend on the processing

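No gene named for its fold or its p, and none of the subset markers, changed direction under the other settings tried. The count of genes called, 4182, was between 4109 and 4399 under 10 other settings of scaling, filter, strand, tool and samples, and between 3552 and 3963 when single WT libraries were left out. A test against a 2-fold threshold called 1158 genes, 466 higher at label CD11b and 692 at label CD8, as its construction sets a higher bar, so that 40.2% instead of 47.5% of calls were higher at label CD11b. Whether same-numbered libraries came from the same spleen could not be settled, and the main fit took them as unpaired. Same-numbered libraries correlated only at 0.023 to 0.077 in their deviations from the group means. Every library nonetheless correlated best with its own number. With the replicate block, 4399 genes were called, of which 4105 were shared. The number of genes whose difference between labels differed between genotypes, 3, was 8 with the replicate block, 28 with a replicate block by genotype and number (chosen after seeing the data), 11 with DESeq2 and 3 to 22 when single libraries were left out; the cause was not tested. With unstranded counts, 2 called genes outside the lists were called in the opposite direction, and Clec1a, counted above among the C-type lectins not called, changed sign and was called. Other list members given above as not called, among them Irf7, Mki67, H2-Ab1 and Etv3, were called with the same sign under several other settings. Simulated 2-fold changes were recovered for 61.9% of the genes changed, in a simulation with far fewer changed genes than were called here. Smaller or rarer differences may be missed.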

Other observations

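Other gene groups also differed between the labels in WT. Matrix proteases and their inhibitors had 6 of 23 genes higher at label CD11b (cDC1-like) and 12 at label CD8 (cDC2-like). Adam19, a membrane metalloprotease, was at 952, 897 and 900.2 CPM at label CD11b and 251, 250.1 and 284 CPM at label CD8. Serpinb9, an inhibitor of granzyme B, was at 274 ± 38.5 against 62.2 ± 12.2 CPM and Serpinb6b at 213 ± 44.1 against 22.8 ± 1.79 CPM, also higher at label CD11b. Mmp12, macrophage elastase, was at 1.3, 1.2 and 0.646 CPM at label CD11b and 49.6, 40.8 and 22.2 CPM at label CD8 and Mmp14, a membrane collagenase, at 0.906 ± 0.853 against 21.4 ± 2.14 CPM, higher at label CD8. Of 25 TGF-β pathway genes, 14 were higher at label CD8 and 4 at label CD11b. The inhibitor gene Smad7 (74 ± 6.9 against 272 ± 17.2 CPM) and Thbs1, which can activate latent TGF-β (15.3 ± 3.28 against 119 ± 38.7 CPM), were higher at label CD8, as was Nrros, an anchor of latent TGF-β (137 ± 21.6 against 249 ± 25.5 CPM). Lrrc32, which encodes the related anchor GARP, was higher at label CD11b (77.3 ± 4.35 against 15 ± 4.4 CPM), as was the receptor gene Acvrl1 (84.6 ± 8.59 against 13.4 ± 3.29 CPM).

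Purinergic receptors had 3 calls in each direction among 14 genes, 42.9% called against 33.8% of all genes tested. P2ry14, a receptor for UDP-glucose, was at 201, 216 and 191 CPM at label CD11b and 19.9, 11.3 and 19 CPM at label CD8, and P2ry10 was at 259.9 ± 26.3 against 516 ± 32.6 CPM. Of 14 S100 and annexin genes, 4 were higher at label CD11b, 5 at label CD8 and 5 were not called. Their median log2 fold change was -0.16, and the summed levels overlapped (1134 to 1231 against 1112 to 1238 CPM). S100a4 (1.45 ± 1.09 against 32.2 ± 4.23 CPM), S100a6 (8.89 ± 2.11 against 69.6 ± 13.9 CPM), S100a10 (2.95 ± 1.97 against 19.9 ± 0.844 CPM) and Anxa2 (51.1 ± 7.49 against 159.9 ± 16.1 CPM) were higher at label CD8 and Anxa6 (645 ± 5.69 against 457 ± 22.3 CPM) at label CD11b. Among retinoid and vitamin D genes, Rxra was higher at label CD11b (43.9 ± 4.35 against 17 ± 4.32 CPM) and its relative Rarg at label CD8 (2.7 ± 2.19 against 16.4 ± 5.4 CPM).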
